A study of Mus musculus with 8 samples.

Results

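Effector and regulatory cytokine genes were followed in the RNA of conventional (Tconvs) and regulatory (Tregs) CD4+ T cells of mice with chronic CD70 expression. The group was made of the 10 genes *Ifng*, *Il10*, *Il21*, *Il2*, *Il4*, *Il17a*, *Il12a*, *Ebi3*, *Csf2* and *Csf1*, taken by name from the 52636 rows of the deposited table, and all 10 had a row. RNA came from 200000 spleen cells per library, sorted from Foxp3 reporter (Foxp3eGFP) mice used between 6 and 8 weeks of age as Foxp3+ (Tregs) or Foxp3- (Tconvs). Tconvs, unlike Tregs, were depleted of CD25+ cells before sorting. Differences between the subsets cannot be separated from any effect of this step. In CD70Tg mice (CD11c-*Cd70*tg;CD27+/-), the CD11c promoter placed CD70, the ligand of CD27, on CD11c+ cells such as dendritic cells, and CD27+/- mice without the transgene were the controls, so that every group carried 1 inactivated copy of the gene for CD27. There were 2 libraries per group and 8 in all. CD70Tg mice of this kind develop a spontaneous disease, and the sources used here do not say whether the libraries of a group came from separate or from pooled mice, so that the p-values measure only the spread between these libraries, which may be technical.

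Cytokines are the secreted proteins by which T cells act on other cells. Interferon-gamma defines the type 1 helper response and is induced in T cells by T-bet and Eomes, IL-4 and IL-17A define the type 2 and type 17 responses, and IL-21 is the product of T cells that help B cells. IL-10 and IL-35, which pairs the Ebi3 chain with the IL-12 p35 chain encoded by *Il12a*, are counted among the means by which Tregs restrain other cells. IL-2 is made by activated Tconvs and used by Tregs, which repress their own *Il2* gene, while CSF2 (GM-CSF) and CSF1 (M-CSF) act on myeloid cells.

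The values were numbers of reads per gene set by the authors to a total of 20 M in each library, with fractions rounded up, so that a value of 20 was worth 1 read per M. The depth behind them, estimated from the smallest step between low values, lay between 6.94 and 33.3 M reads on genes in the Tconv libraries, with 2 estimates less certain than the rest, and between 1.91 and 4.57 M in the Treg libraries. The value given by 3 reads, taken as the floor, was 1.80 to 8.64 in Tconvs and 13.1 to 31.3 in Tregs, and these limits cover counting error only. *Cd4* lay between 16100 and 31244 in all 8 libraries, and *Foxp3* between 19769 and 21367 in Tregs against 1039 to 1497 in Tconvs, so that the sorted populations carried the markers of their labels. Genes were tested with limma on log2(value + 5) if they had at least 60 in at least 2 libraries, and a call needed both an adjusted p-value under 0.05 and a log2 fold change over 1 in either direction. Of the 12816 genes tested, 5 were cytokines of the group (*Ifng*, *Il10*, *Il21*, *Ebi3* and *Csf1*), and the other 5 (*Il2*, *Il4*, *Il17a*, *Il12a* and *Csf2*) stayed below the minimum.

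The promoters of 4 of the tested cytokine genes are shown because 3 of them (*Ifng*, *Ebi3* and *Csf1*) were called higher in CD70Tg Tconvs and 1 (*Il21*) was not called in those cells. Each is the 250 bases before the transcription start, 5′ to 3′ on the strand of the gene, from RefSeq (GRCm38.p6), in lower case with motif matches in capitals. Of the 10 genes, 9 had an entry, all but *Il10*. The motifs searched on both strands were GGTGTGA (T-box, bound by T-bet and Eomes), GGAAAA (NFAT), TGANTCA (AP-1, in which N is any base) and, for NF-kB, GGGA followed by any base and TTTCC, and matches may overlap one another. The sequences are those of *Ifng* at chr10:118440796-118441045 (+), *Ebi3* at chr17:55952373-55952622 (+), *Csf1* at chr3:107760470-107760719 (-) and *Il21* at chr3:37232637-37232886 (-).
Ifng: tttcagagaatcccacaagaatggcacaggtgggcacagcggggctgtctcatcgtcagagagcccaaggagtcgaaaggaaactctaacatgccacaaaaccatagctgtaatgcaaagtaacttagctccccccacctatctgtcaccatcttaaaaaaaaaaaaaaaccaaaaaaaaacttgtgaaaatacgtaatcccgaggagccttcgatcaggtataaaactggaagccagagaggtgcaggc
Ebi3: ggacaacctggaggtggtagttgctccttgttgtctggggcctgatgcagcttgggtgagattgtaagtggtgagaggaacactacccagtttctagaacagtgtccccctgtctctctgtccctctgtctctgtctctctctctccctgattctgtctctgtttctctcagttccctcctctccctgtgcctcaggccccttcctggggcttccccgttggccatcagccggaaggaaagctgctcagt
Csf1: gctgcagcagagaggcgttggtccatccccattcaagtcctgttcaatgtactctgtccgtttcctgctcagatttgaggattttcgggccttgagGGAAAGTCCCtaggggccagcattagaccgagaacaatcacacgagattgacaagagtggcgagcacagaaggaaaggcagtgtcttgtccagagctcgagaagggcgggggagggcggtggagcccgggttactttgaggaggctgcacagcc
Il21: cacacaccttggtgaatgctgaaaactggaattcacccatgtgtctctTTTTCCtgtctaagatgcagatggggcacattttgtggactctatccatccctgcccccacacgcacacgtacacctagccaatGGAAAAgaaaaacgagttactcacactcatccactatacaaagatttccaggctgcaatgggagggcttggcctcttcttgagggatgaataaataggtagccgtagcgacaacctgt
The *Csf1* window held 1 NF-kB match, on the reverse strand 154 to 145 bases before the start, and the *Il21* window held 2 NFAT matches, at 202 to 197 and 118 to 113 bases. None of the 4 motifs was written in the *Ifng* and *Ebi3* windows. Of 32851 promoters of the same length, 3.33% held the T-box motif, 20.4% the NFAT, 6.75% the AP-1 and 0.356% the NF-kB motif. A match is a description of the letters and no evidence of binding.

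In Tconvs, 4 of the 5 tested cytokines were called higher in CD70Tg than in control cells, and 0 lower. These were *Ifng*, *Il10*, *Ebi3* and *Csf1*, in a comparison in which 4.65% of all genes tested were called, 4.07% higher and 0.577% lower. The median log2 fold change was 2.19 over the 5 tested cytokines and 0.01 over all genes tested. In Tregs, 1 of the 5, *Ifng*, was called higher and 0 lower, where 3.6% of all genes tested were called, 2.53% higher and 1.08% lower, and the medians were 1.08 and -0.05. At an unadjusted p-value under 0.05, 0 cytokines were lower with limma in either subset, against 6.76% and 12.3% of all genes tested in Tconvs and Tregs, and limma-voom on estimated reads also called 0 lower. The adjusted p-values for genes below are limma's, and fold changes are on the log2(value + 5) scale, which understates the change of low genes. In bulk RNA, a larger share of cells with a transcript cannot be told apart from more of it per cell.

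**Figure D1:**
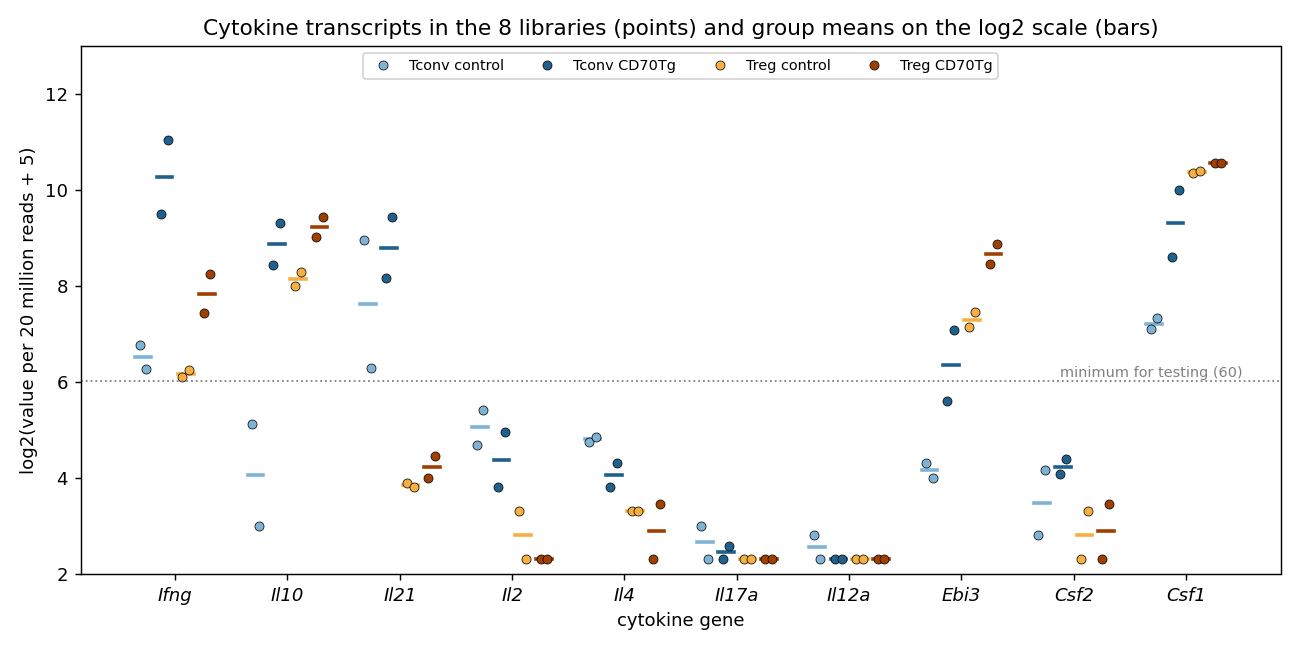
Value of each of the 10 cytokine genes in the 8 libraries (points) and the mean on the plotted scale in each group (bars), as log2(value per 20 M reads + 5). *Ifng*, *Il10*, *Ebi3* and *Csf1* of CD70Tg cells lie above both control libraries in either subset, and *Il17a* and *Il12a* stay near the bottom in all 8.

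*Ifng* (ENSMUSG00000055170, chr10:118441046-118445892, + strand, mm10), the type 1 effector cytokine, was the highest of the 10 per kb of exon in CD70Tg Tconvs. In Tconvs its values were 105 and 72 in the control libraries and 718 and 2111 in the CD70Tg libraries. All the CD70Tg values stood above the controls, and the second CD70Tg library stood well above the first. The means were 88.5 ± 23.3 and 1414.5 ± 985 (SD, n = 2). The log2 fold change was 3.75 with a standard error (SE) of 0.40 and an adjusted p-value of 6.9e-06. It was 4.52 without the first and 2.97 without the second CD70Tg library, and the call held.

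In Tregs, *Ifng* was at 64 and 71 in control and at 168 and 300 in CD70Tg libraries. The groups did not overlap, but the values rested on 13 and 16 reads in the control and 16 and 55 reads in the CD70Tg libraries. The log2 fold change was 1.67 (SE 0.40, adjusted p = 0.0163), so that *Ifng* rose in Tregs too. This call was lost without the first (adjusted p = 0.108) or the second control Treg library (0.0553) or the second CD70Tg Treg library (0.151), with limma-voom on estimated reads (0.55), and with no minimum value (0.153). The difference between the subsets in this response, -2.08 on the log2 scale (adjusted p = 0.105), was not called, although it was called without the first CD70Tg Tconv library (-2.86, adjusted p = 0.00445).

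Control Tregs and control Tconvs had similar levels of *Ifng*, with a log2 difference of -0.35 (95% confidence interval -1.18 to 0.49, adjusted p = 0.498). In CD70Tg mice, the mean of Tconvs was 6.04 times that of Tregs, with 9.02 without the first and 3.07 without the second CD70Tg Tconv library. Gm49751, a locus annotated on the same strand, overlaps 25.9% of the exon length of *Ifng*, and reads shared by the genes cannot be assigned to one of them from these values.

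**Figure D2:**
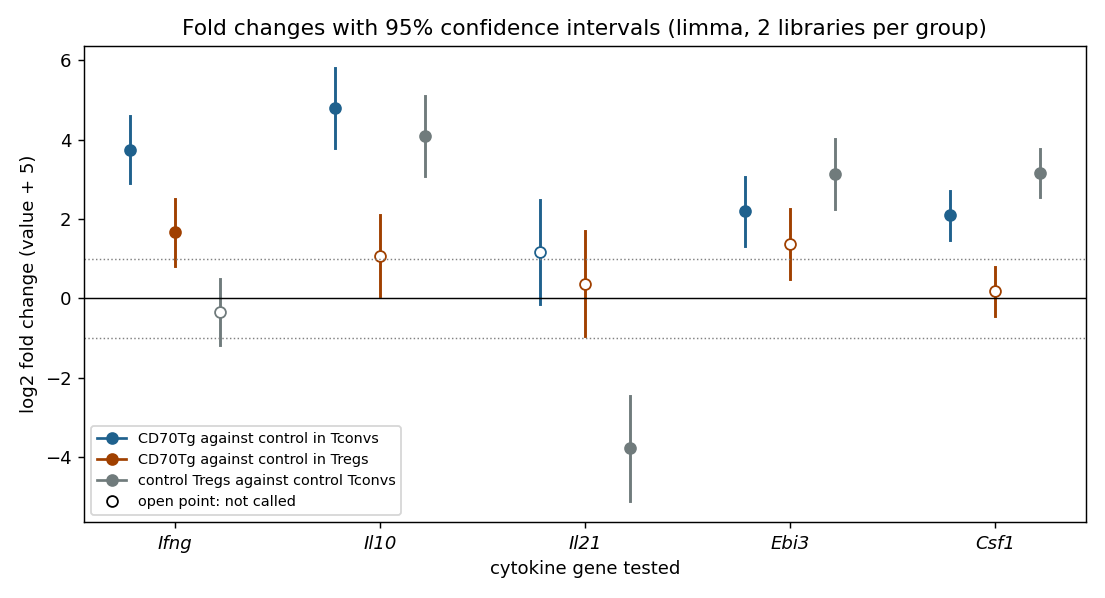
log2 fold change (points) with its 95% confidence interval (lines) for the 5 tested cytokines in Tconvs, in Tregs and between control Tregs and control Tconvs, from limma with 2 libraries per group; filled points were called and dotted lines mark 1 and -1. The Tconv intervals of *Ifng*, *Il10* and *Csf1* lie above those of Tregs, and *Il21* in Tregs rests on 3 reads or fewer per library.

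*Il10* (ENSMUSG00000016529, chr1:131019845-131024974, + strand) encodes the suppressive cytokine IL-10. In Tconvs, its values were 30 and 3 in control and 340 and 629 in CD70Tg libraries. It was nearly absent from the second control library, where 1 read was found, against 118 and 1047 reads in the CD70Tg libraries. The log2 fold change was 4.80 (SE 0.48, adjusted p = 3.6e-06), the largest among the tested cytokines. Its size rested on the control values, at 5.87 without the first and 3.74 without the second control library, and the call held in both cases.

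In Tregs, *Il10* was already high in control libraries, with 253 and 307, and stood at 512 and 691 in CD70Tg libraries. The groups did not overlap, but the log2 fold change of 1.08 (SE 0.48, 95% confidence interval 0.07 to 2.09, adjusted p = 0.199) was not called. It was called when the 4 Treg libraries were fitted alone (adjusted p = 0.00181), without the first control Tconv library (0.0306) and without the second (0.0226). The response differed between the subsets by -3.72 (adjusted p = 0.011), that is, the response of *Il10* was smaller in Tregs. This call was lost without the second CD70Tg Tconv library (adjusted p = 0.08) and without the first CD70Tg Treg library (0.0593), with limma-voom (0.075) and with no minimum value (0.37). The difference was -4.79 without the first and -2.66 without the second control Tconv library, and was called both times.

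The levels of the subsets lay close to each other in CD70Tg mice. The mean of *Il10* in Tregs was 17.0 times that of Tconvs in control mice, and 1.24 times in CD70Tg mice. The control ratio was 93.3 without the first and 9.33 without the second control Tconv library. The control difference was 4.08 on the log2 scale (adjusted p = 4.2e-06), with 5.15 without the first and 3.02 without the second control Tconv library. The CD70Tg libraries overlapped, since the second Tconv library (629) stood above the first Treg library (512).

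*Ebi3* (ENSMUSG00000003206, chr17:55952640-55957022, + strand) encodes a chain shared by IL-27 and IL-35. In Tconvs it was at 15 and 11 in control and at 44 and 131 in CD70Tg libraries. It was low in the controls and above them in both CD70Tg libraries. The log2 fold change was 2.19 (SE 0.41, adjusted p = 0.0021), and the call was lost without the second CD70Tg library (1.45, adjusted p = 0.06), while it was 2.93 without the first; it was also lost with no minimum value (0.0905).

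In Tregs, *Ebi3* was at 136 and 171 in control and at 345 and 468 in CD70Tg libraries. The groups did not overlap, and the log2 fold change of 1.37 (SE 0.41, adjusted p = 0.0549) fell short of the threshold. Without any 1 of the 4 Tconv libraries it passed, with adjusted p-values from 0.0142 to 0.0465. The responses of the subsets differed by -0.82 (adjusted p = 0.688), which was not called. Control Tregs exceeded control Tconvs by 3.14 (adjusted p = 1.5e-05), and the ratio of the means was 11.8 in control and 4.65 in CD70Tg mice. The latter was 3.10 without the first and 9.24 without the second CD70Tg Tconv library. An antisense gene, Gm16712, covers 23.4% of the *Ebi3* exons, and reads of the pair cannot be told apart where counting ignores strand, which the sources used here do not state.

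The chains that could pair with Ebi3 were low or not seen. *Il12a* (ENSMUSG00000027776, chr3:68690644-68698547, + strand), which encodes the p35 chain of IL-12 and IL-35, was at 2 in the first control Tconv library and at 0 in the other 7. *Il27*, which encodes the p28 chain of IL-27, was at 15 and 9 in control Tconvs, 9 and 13 in CD70Tg Tconvs, 10 and 9 in control Tregs, and 21 and 0 in CD70Tg Tregs. That was 3 to 21 reads in Tconvs, above the floor in 3 of the 4 libraries, and 0 to 2 reads in Tregs. *Il12b*, the p40 chain of IL-12 and IL-23, was at 0 in all 8 libraries, and *Il23a*, the p19 chain of IL-23, was between 0 and 11. These 3 partner genes and *Il12a* stayed below the minimum for testing.

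*Il21* (ENSMUSG00000027718, chr3:37222759-37232636, - strand), the cytokine of B cell help, was a transcript of Tconvs. In Tconvs it was at 493 and 74 in control and at 283 and 686 in CD70Tg libraries. The groups overlapped, because the first control library was high. The log2 fold change of 1.17 (SE 0.62, 95% confidence interval -0.15 to 2.49, adjusted p = 0.34) was not called, and it depended on the control library used. Without the first control library it was 2.5 (adjusted p = 0.0105), and without the second it was -0.16 (adjusted p = 0.954).

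The control Tconv libraries also differed in other genes, 31.2% of all genes tested being higher in the second than in the first. Most of these gaps were small, with a median of -0.11 on the log2 scale. Of all genes tested, 1.61% lay over 2-fold apart, against 2.15% to 3.54% in the other groups. *Cxcr5*, which guides T cells to B cell follicles, was at 2805 in the first and 881 in the second, *Pdcd1* (PD-1) at 1867 and 547, and *Bcl6*, the lineage factor of these cells, at 1008 and 555. *Cxcr5*, *Pdcd1* and *Bcl6* were chosen after their values were seen, and the part of follicular helper T cells in the values of *Il21* was not tested.

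In Tregs, *Il21* was at 10 and 9 in control and at 11 and 17 in CD70Tg libraries, which is 1 to 3 reads each, so that no fold change can be given there. Against the larger floor of the Treg libraries, the mean of Tconvs was at least 19.5-fold higher in control and at least 15.5-fold higher in CD70Tg mice. The first bound was 5.08 without the first and 33.9 without the second control Tconv library, and the other 21.9 and 9.03 without the first and the second CD70Tg Tconv library. The control difference was called (adjusted p = 1.3e-04), though not with limma-voom on estimated reads (adjusted p = 0.0836). Gm12534, an antisense gene, shares 8.92% of the *Il21* exon length.

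*Il2*, *Il4* and *Il17a* lay below the minimum value and entered a test only under the alternative with no minimum. *Il2* (ENSMUSG00000027720, chr3:37120523-37125959, - strand), the T cell growth factor, was at 21 and 38 in control and at 9 and 26 in CD70Tg Tconvs. The groups overlapped. In Tregs it was at 5 and 0 in control and at 0 and 0 in CD70Tg libraries, where 1 read was found in the 4 libraries together, and the control Tconv mean was at least 2.03-fold higher than in control Tregs. With no minimum value, *Il2* was called lower in control Tregs (adjusted p = 0.03), and not called in Tconvs (-0.68, adjusted p = 0.841).

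*Il4* (ENSMUSG00000000869, chr11:53602982-53618669, - strand), the type 2 cytokine, was at 22 and 24 in control and at 9 and 15 in CD70Tg Tconvs. It was the only cytokine of the 10 whose CD70Tg Tconv libraries both lay below both control libraries, as did 21.4% of all genes tested. The lower value, 9, was 3 reads. With no minimum value it was tested and not called (-0.74, adjusted p = 0.782). In Tregs, *Il4* was between 0 and 6, or at most 1 read. *Il17a* (ENSMUSG00000025929, chr1:20730905-20734496, + strand), the type 17 cytokine, was at 3 and 0 in control and 0 and 1 in CD70Tg Tconvs and at 0 in all 4 Treg libraries. In the Treg libraries 1 read was worth 4.38 to 10.45, so that a lower level could not be seen at this depth. A value below the floor of 13.1 to 31.3 there rests on at most 3 reads and is imprecise.

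*Csf1* (ENSMUSG00000014599, chr3:107741048-107760469, - strand) encodes the growth factor of macrophages. In Tconvs it was at 132 and 157 in control and at 387 and 1024 in CD70Tg libraries. All the CD70Tg values were above the controls. The log2 fold change was 2.09 (SE 0.29, adjusted p = 1.2e-04), and the call held without each library in turn, with 2.79 without the first and 1.40 without the second CD70Tg Tconv library, but not with no minimum value (adjusted p = 0.0524).

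In Tregs, *Csf1* was at 1311 and 1345 in control and at 1505 and 1501 in CD70Tg libraries. The CD70Tg values were slightly above the controls, and the log2 fold change was 0.18 (SE 0.29, 95% confidence interval -0.43 to 0.79, adjusted p = 0.783). The response of Tregs differed from that of Tconvs by -1.91 (adjusted p = 0.0305), and it was 1 of 2 tested cytokines, with *Il10*, called on the adjusted p-value alone in this comparison, both with the smaller response in Tregs. Of all genes tested, 1.02% were called there, 0.195% with the larger and 0.827% with the smaller response in Tregs. For *Csf1* the call was lost without the first (adjusted p = 0.0817) or the second control Treg library (0.0878), and without the first (0.111) or the second CD70Tg Treg library (0.088), and with median-of-ratios factors (0.0628), limma-voom (0.104) and no minimum value (0.37). It was -2.61 without the first and -1.22 without the second CD70Tg Tconv library, and was called both times. Control Tregs exceeded control Tconvs by 3.16 (adjusted p = 2.9e-07), and the ratio of the means was 9.19 in control and 2.13 in CD70Tg mice. The latter was 1.47 without the first and 3.88 without the second CD70Tg Tconv library.

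*Csf2* (ENSMUSG00000018916, chr11:54247271-54249667, - strand), which encodes GM-CSF, was at 2 and 13 in control and at 12 and 16 in CD70Tg Tconvs, and between 0 and 6 in Tregs. The Tconv groups overlapped. The gene lay below the minimum, and with no minimum value it was not called in Tconvs (0.75, adjusted p = 0.841). Its antisense neighbour Gm12223 overlaps 12.0% of its exons.

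Between the subsets of control mice, 3 of the 5 tested cytokines were called higher in Tregs (*Il10*, *Ebi3* and *Csf1*) and 1 was called lower (*Il21*), where 19.2% of all genes tested were called, 14.7% higher and 4.43% lower. The difference that CD70 made was smaller in Tregs for all 5, with a median of -1.91 against -0.08 over all genes tested, but it was called for *Il10* and *Csf1* only, and *Il21* in Tregs was at the floor. Counts of libraries without overlap say less. *Ifng*, *Il10*, *Ebi3* and *Csf1* were higher in both CD70Tg libraries than in both controls in Tconvs and in Tregs, as were 23.7% and 22.5% of all genes tested.

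The libraries of a group also differed. In CD70Tg Tconvs, the second library was higher than the first for all 5 tested cytokines, with a median log2 gap of 1.39, whereas it was higher for 73.9% of all genes tested, with a median of 0.17. *Ifng* was at 718 in the first and 2111 in the second, and *Tbx21*, which encodes T-bet, followed with 848 and 2368. For *Ifng*, *Ebi3* and *Csf1*, the libraries of this group lay further apart than those of any other group, while for *Il10* and *Il21* the control Tconv libraries did.

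The makeup of the cytokine transcripts was compared per kb of exon, which allows levels of different genes to be set side by side. The sum of the 10 per kb was 278 and 180 in control Tconvs and 1009 and 2604 in CD70Tg Tconvs. It was 619 and 704 in control Tregs and 1107 and 1464 in CD70Tg Tregs. Thus the sum was higher in CD70Tg cells of either subset, without overlap.

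In CD70Tg Tconvs, *Ifng* made up 54.9% and 62.6% of the sum per kb and *Il10* 25.7% and 18.4%. In control Tconvs, *Ifng* had 29.1% and 30.8%, *Il10* 8.23% and 1.27%, and *Il21* 33.7% and 7.81%. *Ifng* thus came first in 3 of the 4 Tconv libraries, and *Il21* in the first control library.

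In control Tregs, *Csf1* had the largest share, with 40.1% and 36.2%, followed by *Il10* with 31.2% and 33.3% and *Ebi3* with 19.0% and 21.05%. In CD70Tg Tregs, *Il10* led with 35.3% and 36.0%, *Ebi3* had 27.0% and 27.7%, and *Csf1* had 25.8% and 19.4%. *Ifng* had 7.98% and 7.79% in control and 11.7% and 15.8% in CD70Tg Tregs. Per kb, *Il10* was 3.91 and 4.27 times *Ifng* in control and 3.01 and 2.28 times in CD70Tg Tregs, while in CD70Tg Tconvs *Ifng* was 2.14 and 3.40 times *Il10*.

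**Figure D3:**
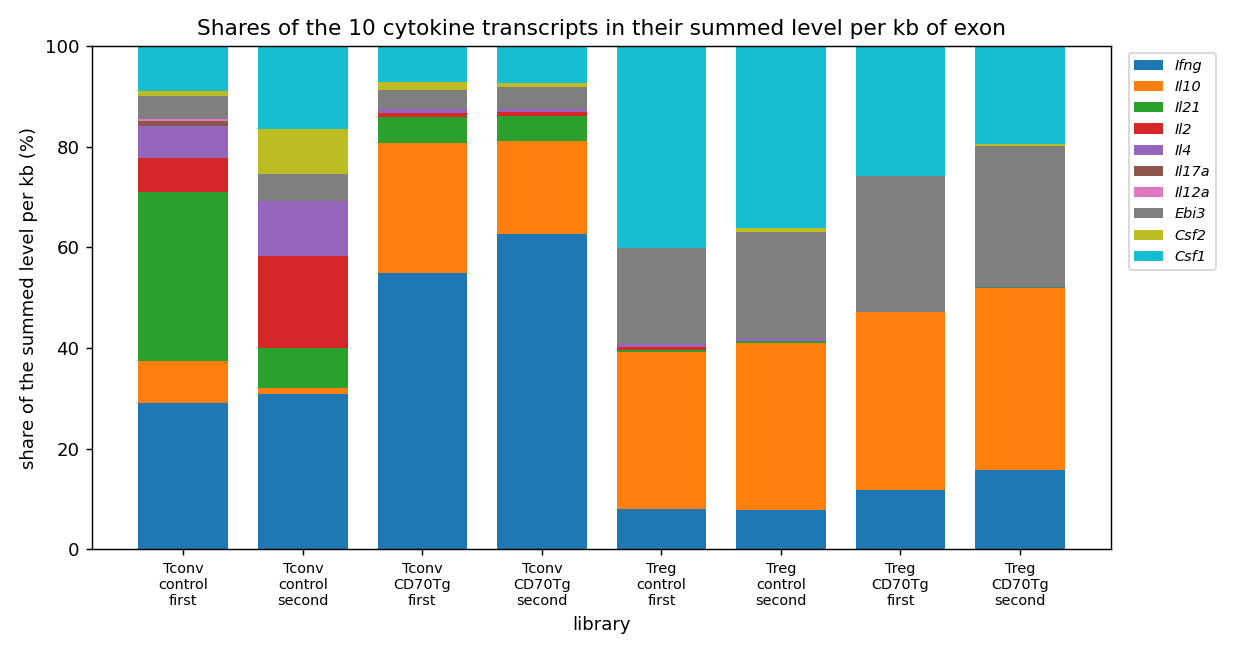
Share (%) of each of the 10 cytokine genes in their summed level per kb of exon in each of the 8 libraries (bars). *Ifng* fills 54.9% and 62.6% of the bars of CD70Tg Tconvs, and *Il10*, *Ebi3* and *Csf1* fill most of those of Tregs.

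The patterns of the tested cytokines over the 8 libraries were compared by Pearson's r of log2(value + 5), as a description, since the libraries share groups and depth. *Ebi3* and *Csf1* were the most alike of the 10 pairs (0.960), followed by *Il10* with *Ebi3* (0.870) and *Il10* with *Csf1* (0.863). *Ifng* was less like *Il10* (0.525) and *Il21* (0.610). Among all genes tested, those most like *Ifng* were *Tspan31* (0.979), *Pcdhgc3* (0.979) and *Ifit1bl1* (0.976), and those most like *Il10* were *Gbp9* (0.995), *Rgs16* (0.994) and *Cep170b* (0.994). For *Il21* they were *Zwint* (0.995), *Derl1* (0.991) and *Cdt1* (0.99), for *Ebi3* *Ncf4* (0.998), *Nudt4* (0.996) and *March3* (0.994), and for *Csf1* *Ncapg* (0.993), *Rgs1* (0.992) and *Eif4enif1* (0.992).

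Receptor chains of the cytokines were next examined, of which 18 of 20 were tested and *Il17rc* and *Csf2rb2* were too low. In Tconvs, 4 were called higher and 0 lower, and in Tregs 2 higher and 0 lower, where 4.07% and 2.53% of all genes tested were called higher. The medians were -0.03 and 0.12, against 0.01 and -0.05 over all genes tested. At any fold change, 3 chains in Tconvs and 2 in Tregs were lower at an adjusted p-value under 0.05, where 1.99% and 3.46% of all genes tested were, and limma-voom on estimated reads called 0 lower.

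*Ifngr1*, the binding chain of the interferon-gamma receptor, was at 3455 and 3275 in control and at 6391 and 7528 in CD70Tg Tconvs, and at 7585 and 8245 in control and 15913 and 18492 in CD70Tg Tregs. It rose in both subsets, by a log2 fold change of 1.04 (adjusted p = 2.1e-05) and 1.12 (adjusted p = 4.3e-05). The partner chain *Ifngr2* stayed short of the fold threshold, at -0.59 (adjusted p = 0.0161) in Tconvs and -0.23 (adjusted p = 0.389) in Tregs.

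*Il10ra*, the binding chain for IL-10, was at 1278 and 1133 in control and at 3369 and 4140 in CD70Tg Tconvs, and at 3227 and 4029 in control and 5434 and 4551 in CD70Tg Tregs. It rose in Tconvs by 1.63 (adjusted p = 8.5e-07), had 0.46 in Tregs (adjusted p = 0.0591), and the responses differed by -1.17 (adjusted p = 0.0077). *Il10* and its receptor chain thus both rose in Tconvs and both had a called difference between the subsets. *Il10rb*, the common chain, was not called, with 0.15 and 0.03.

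*Il12rb1*, a receptor chain for IL-12 and IL-23, rose in Tconvs by 1.93 (adjusted p = 6.1e-06) and had 0.66 (adjusted p = 0.0566) in Tregs. The responses differed by -1.27 (adjusted p = 0.0411). *Il12rb2*, the IL-12 specific chain, was at 207 and 185 in control and 251 and 728 in CD70Tg Tconvs and at 44 and 62 in control and 95 and 256 in CD70Tg Tregs. Its log2 fold changes of 1.11 (adjusted p = 0.164) and 1.495 (adjusted p = 0.0522) were not called. *Il27ra* was not called, with 0.04 and -0.07, and *Il6st*, the signalling chain shared by receptors of IL-6, IL-27 and IL-35, had -0.60 (adjusted p = 0.0129) and -0.89 (adjusted p = 0.0011), short of the fold threshold.

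Of the chains that bind IL-2, *Il2rb* rose in Tconvs by 1.05 (adjusted p = 2.4e-05) but had 0.14 (adjusted p = 0.571) in Tregs, and the responses differed by -0.91 (adjusted p = 0.0157). *Il2ra* (CD25) had -0.55 and -0.56 (adjusted p = 0.0529 and 0.0559), and Tconvs had been depleted of CD25+ cells before sorting. *Il2rg*, *Il21r*, *Il4ra* and *Il17ra* were not called in either subset, with log2 fold changes between -0.46 and 0.46.

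*Il13ra1*, a chain of the IL-4 and IL-13 receptor, was at 25 and 36 in control and at 209 and 202 in CD70Tg Tregs. It rose there by 2.58 (adjusted p = 0.0014), while in Tconvs it stayed between 9 and 21, and the difference was called (3.16, adjusted p = 0.016). Markers of some myeloid cells were higher in the same libraries. The summed level of 4 neutrophil markers was 5 in both control and 165 to 180 in CD70Tg Treg libraries, nearly all of it *S100a8* and *S100a9*, since *Ly6g* and *Mpo* had at most 1 read each. That of 5 dendritic cell markers was 94 to 156 and 356 to 389, while that of 6 macrophage or monocyte markers was 2701 to 2802 and 2608 to 2834. Within the latter, *Itgam* (CD11b) was called higher, from 146 and 198 to 377 and 381 (1.13, adjusted p = 0.0129), and *Csf1r* was at 1500 and 1205 in control and 930 and 762 in CD70Tg libraries. Limma-voom called 0 of the macrophage or monocyte markers higher in Tregs, so that the call of *Itgam* was lost there. Cells carrying GR1, CD11c or MHC class II, which mark granulocytes, dendritic cells and macrophages, had been depleted before CD3+ CD4+ cells were sorted, and the part of any that remained in the result was not tested. *Csf1r*, *Csf2ra* and *Csf2rb*, receptor chains of myeloid cells, were not called, and *Csf1r* had -0.67 in Tregs (adjusted p = 0.0294).

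**Figure D4:**
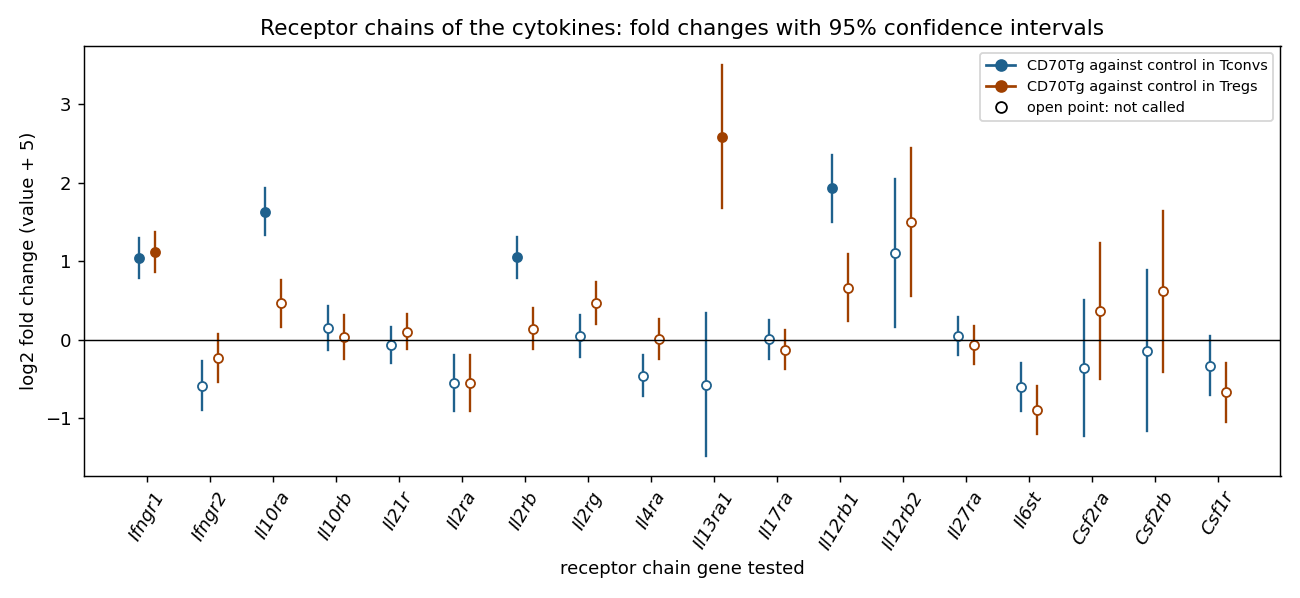
log2 fold change (points) with its 95% confidence interval (lines) of the 18 tested receptor chain genes in Tconvs and in Tregs, from limma; filled points were called. *Ifngr1* was called in both subsets, *Il10ra*, *Il12rb1* and *Il2rb* in Tconvs, and *Il13ra1* in Tregs.

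Regulators of cytokine genes were called higher for 4 of 23 tested in Tconvs and 5 of 23 in Tregs, where 4.07% and 2.53% of all genes tested were. Called lower were 0, against 0.577% and 1.08% of all genes tested. At an adjusted p-value under 0.05 and any fold change, 1 was lower in Tconvs and 0 in Tregs, against 1.99% and 3.46% of all genes tested, and limma-voom called 0 lower. With limma-voom, 6 regulators were called higher in Tconvs and 4 in Tregs. *Eomes*, a T-box factor that induces *Ifng*, was at 352 and 258 in control and at 2807 and 3386 in CD70Tg Tconvs, and at 93 and 75 in control and 1547 and 1458 in CD70Tg Tregs. It rose by 3.33 (adjusted p = 4.2e-09) and 4.09 (adjusted p = 2.2e-09), without a called difference between the subsets (0.76, adjusted p = 0.262). *Tbx21* (T-bet) was called in Tregs (1.28, adjusted p = 0.0191) and not in Tconvs (0.97, adjusted p = 0.0661), and the difference between the subsets was not called (0.31, adjusted p = 0.874).

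*Bhlhe40*, a repressor of *Il10*, rose by 3.91 (adjusted p = 1.6e-08) in Tconvs and 2.06 (adjusted p = 7.3e-05) in Tregs, a called difference of -1.86 (adjusted p = 0.0131). *Prdm1* (Blimp-1), an activator of *Il10*, was at 239 and 245 in control and at 911 and 1129 in CD70Tg Tconvs, and at 1582 and 2080 in control and 2853 and 2909 in CD70Tg Tregs. It was called in Tconvs and had a smaller response in Tregs, by -1.38 (adjusted p = 0.0044). *Rora* was called in Tconvs (adjusted p = 5.8e-06). *Maf*, another activator of *Il10*, had 0.65 (adjusted p = 0.111) and -0.30 (adjusted p = 0.499).

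Interferon-gamma targets, all 14 of which were tested, had log2 fold changes above 0 for 14 of 14 in both subsets, and 7 were called higher in Tconvs and 5 in Tregs, against 4.07% and 2.53% of all genes tested. The medians were 1.35 and 0.93, against 0.01 and -0.05 over all genes tested. *Gbp2*, a guanylate-binding protein of host defence, was at 2897 and 2537 in control and 9266 and 12535 in CD70Tg Tconvs and rose by 1.99 (adjusted p = 7.4e-08). In Tregs it was at 4154 and 3753 in control and 8485 and 9956 in CD70Tg libraries and rose by 1.22 (adjusted p = 5.9e-05). *Iigp1* rose by 1.86 and 1.37, and *Gbp3* by 1.95 in Tconvs, with 0.63 in Tregs and a called difference of -1.32 (adjusted p = 0.0044). *Igtp* rose by 1.45 and 1.11, and *Cxcl9*, a ligand of CXCR3, was called in Tregs (1.87, adjusted p = 0.02) and not in Tconvs (1.35, adjusted p = 0.0855), and the difference was not called (0.52, adjusted p = 0.843). *Cxcl9* was at 20 and 31 in control and 95 and 115 in CD70Tg Tregs, or 4 and 7 against 9 and 21 reads. With limma-voom, 9 of the targets were called higher in Tconvs and 4 in Tregs.

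Of 22 other T cell cytokines and chemokines, 12 were tested, and 1 was called higher in Tconvs and 2 in Tregs, against 4.07% and 2.53% of all genes tested. *Ccl5*, a chemokine of effector T cells, was called in both subsets, at 823 and 743 in control and 18091 and 12896 in CD70Tg Tconvs (4.28, adjusted p = 5.6e-09) and at 539 and 1226 in control and 8077 and 8124 in CD70Tg Tregs (3.31, adjusted p = 1.2e-06). *Xcl1*, a chemokine for XCR1+ dendritic cells, was called in Tregs (1.71, adjusted p = 0.0184) but not in Tconvs (0.13, adjusted p = 0.922), and the difference was not called (adjusted p = 0.304). In Tregs *Xcl1* was at 10 and 31 in control and 84 and 60 in CD70Tg libraries. These values rested on few reads, 2 and 7 against 8 and 11. Limma-voom on estimated reads called 1 of the 12 higher in each subset. None of the 12 was called lower with limma, and at an unadjusted p-value under 0.05, 1 was lower in Tconvs and 2 in Tregs, against 6.76% and 12.3% of all genes tested. *Tnf* had 0.02 and -0.59 and *Tgfb1* -0.22 and -0.12, none of them called.

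Markers of other cells that make cytokines were also measured. *Cd8a* was at 17 and 28 in control and 508 and 608 in CD70Tg Tconvs and at 25 and 71 in control and 262 and 223 in CD70Tg Tregs, and rose by 4.38 (adjusted p = 9.8e-07) and 2.37 (adjusted p = 0.0012). *Cd8b1*, the other chain of CD8 on cytotoxic T cells, had 0.58 (adjusted p = 0.0377) and 0.34 (adjusted p = 0.259), and CD8-beta+ cells had been depleted before CD3+ CD4+ cells were sorted, as had NK cells (by CD49b) and erythroid cells (by Ter119). Of 5 NK cell markers, *Ncr1* was at 0 to 2 in all 8 libraries and *Klrb1c* fell in both subsets. The summed level of the 5 was 524 to 633 in control and 165 to 226 in CD70Tg Tconvs, and 45 to 69 and 0 to 11 in Tregs. Their part in the values of *Ifng* was not tested.

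Dendritic cell markers, 5 in number, summed to 66 to 133 in control and 177 to 340 in CD70Tg Tconvs, and *Itgax* (CD11c) was called there (1.76, adjusted p = 0.0152), from 31 and 57 to 101 and 236. *Siglech*, a marker of plasmacytoid dendritic cells, was at 6 and 28 in control and 0 and 3 in CD70Tg Tconvs, and *Flt3* at 13 and 17 and at 12 and 7. *Xcr1* was higher, from 7 and 26 to 49 and 56, as was *Zbtb46*, a factor of conventional dendritic cells, from 9 and 5 to 15 and 38. The higher sum was thus mostly *Itgax*, with smaller parts from *Xcr1* and *Zbtb46*. In Tregs, *Zbtb46* was at 25 and 27 in control and 209 and 191 in CD70Tg libraries and was called (2.73, adjusted p = 0.0017). *Xcr1* was at 10 and 18 in control and 63 and 33 in CD70Tg Tregs, or 2 and 4 against 6 and 6 reads. Macrophage or monocyte markers, 6 in number, summed to 1498 to 1541 and 928 to 1217 in Tconvs. Erythroid markers, 3 in number, summed to 605 to 1067 and 659 to 699 in Tconvs and to 419 to 1144 and 1655 to 2624 in Tregs. The part of these cells in the values of *Il10*, *Ebi3* and *Csf1* was not tested. The 4 plasma cell markers summed to between 1540 and 2205 in all libraries.

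**Figure D5:**
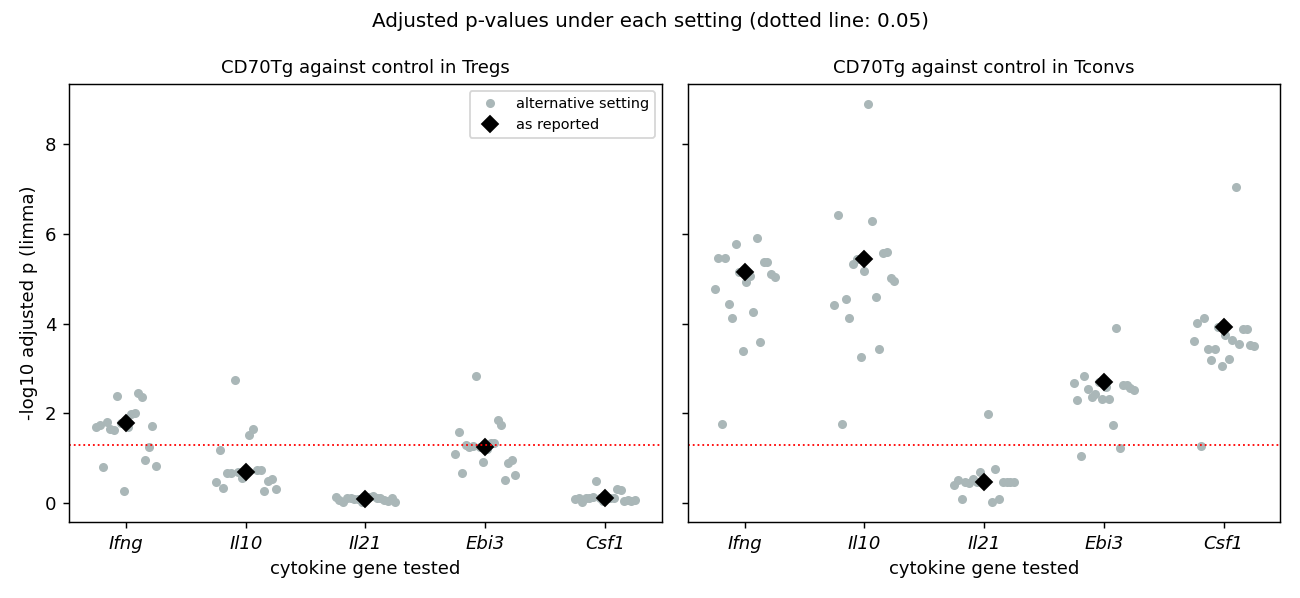
Adjusted p-value, as -log10, of each of the 5 tested cytokines in Tregs (left) and Tconvs (right), as reported (diamonds) and under each alternative setting (grey points); the dotted line marks 0.05. Those of *Ifng* and *Il10* in Tconvs stay above the line, and those of *Ifng*, *Il10* and *Ebi3* in Tregs lie on both sides of it.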

How the data were processed

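The libraries were made with the Ovation SoLo system and sequenced in paired ends. The submitters' processing notes name Trimmomatic 0.36 for adapters, STAR 2.5.3 for mapping to mm10 and HTSeq 0.9.1 for counting. The deposited score values are these counts brought by the authors to a total of 20 M in each library, with fractions rounded up. Column totals lay between 19963628 and 20164600. Columns name the controls KO where the labels give WT and the methods CD27+/-, and they carry no replicate numbers; first and second follow the column order.

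The step of the low values gave the reads behind each value, and 3 reads were taken as the floor. Of 52636 rows, 4131 with clone-derived names were left out, and of the 97 repeated names the row with the largest total kept the name. Positions and exon lengths came from GENCODE M21 (GRCm38), which held 99.7% of the identifiers. The 12816 genes that reached 60 in 2 or more libraries entered limma 3.58.1 under R 4.3.3 (trend, prior degrees of freedom 12.3) on log2(value + 5), with 1 coefficient for each of the 4 groups and all 8 libraries. The Benjamini-Hochberg adjustment ran over all genes tested. The procedure was tested on simulated data.

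The 10 cytokines, the other gene lists and the tests were chosen with earlier results of these data known. Named genes were the 10 cytokines, for each tested one the 3 genes with the highest correlation, their receptor chains and partner chains, marker genes of other cells, and from each other list the called genes with the largest changes, 5 at most. *Cxcr5*, *Pdcd1*, *Maf*, *Tnf*, *Tgfb1* and *Bcl6* were named beyond this rule, after their values were seen. The alternatives were other pseudocounts (1 and 20), minimums, scalings, libraries in the fit, no fold change threshold, limma-voom, all rows kept, and each library left out in turn.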

Additional observations from a re-analysis of the deposited data

Results flagged for a closer look

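*Il10* and *Csf1* passed limma's test of the difference between the subsets in their response to CD70, though not under every setting. For *Il10*, the log2 fold change in Tregs minus that in Tconvs was -3.72 (adjusted p = 0.011). It did not pass with limma-voom (0.075), with no minimum value (0.37), or without either of 2 libraries (0.0593 and 0.08). It was higher in CD70Tg than in control libraries of both subsets, from 16.5 to 484.5 on average in Tconvs and from 280 to 601.5 in Tregs.

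For *Csf1*, the same difference was -1.91 (adjusted p = 0.0305). It did not pass with limma-voom (0.104), no minimum value (0.37) or median-of-ratios factors (0.0628), nor without any 1 of the 4 Treg libraries (0.0817 to 0.111). The mean went from 144.5 to 705.5 in Tconvs and from 1328 to 1503 in Tregs.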

How the results depend on the processing

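The alternatives were all planned. Of the counts of called cytokines, 49 stayed within 1.5 times the reported count and 22 did not. In Tregs, 1 was reported, with 2 at a pseudocount of 20, 3 with the 4 Treg libraries alone, 0 with no minimum value, 0 with limma-voom, and 0 to 3 when a library was left out. In Tconvs, 4 were reported, with 2 with no minimum value and 3 to 5 when a library was left out. In the difference between the subsets, 2 were reported, with 0 with no minimum value, 0 with limma-voom, 1 with median-of-ratios factors (*Il10*), 1 with more than 10 in every library (where *Il10* was not tested), and 0 to 3 when a library was left out. Between the controls, 4 were reported, with 2 with more than 10 in every library, where 3 cytokines were tested, 4 whichever library was left out, and 5 with no minimum value, which adds *Il2*. The causes were not tested; with no minimum value the standard errors also grew, from 0.40 to 0.50 for *Ifng*. Of the values of single cytokines, 314 kept direction and side of the threshold, 20 lost and 11 gained the call, and 2 reversed. Those reversed were *Il21* without the second control Tconv library, at -0.159 in Tconvs and 0.531 in the difference, which rests on Treg values at the floor; without the first they were 2.5 and -2.12. Over all genes, 462 were called in Tregs, 202 with no minimum and 172 with limma-voom, and in Tconvs 596, with 283 and 859. In the difference 131 were called, with 0 and 60. Without a fold threshold there were 948 in Tregs and 1129 in Tconvs. Under TMM factors, the median of all genes between the controls moved from 0.07 to -0.13. No paired analysis was possible because the columns carry no replicate numbers. With 2 libraries per group and 1.91 to 4.57 M reads in the Treg libraries, *Il21*, *Il2*, *Il4*, *Il17a*, *Il12a* and *Csf2* could not be followed in Tregs.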
